A study of Mus musculus with 4 samples.

Results

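A set of 9 receptor genes of natural killer (NK) cells were followed by library in immune cells from mouse brains bearing GL261, a mouse glioma line: Klra4, Klra8, Klre1, Klrb1c, Klrk1, Klrc1, Klrd1, Klri2 and Ncr1. They were a fixed list of 9 symbols, all of them found among the 30406 genes shared by the 4 libraries, and were described in NK and CD8 T cells that were gated on raw marker counts. The libraries held live CD45.2+ cells in unique molecular identifier (UMI) counts per gene, with 1 library per group. The groups were WT without treatment and IFNaR-/- without treatment, both sorted on day 20 after tumour injection, and WT and IFNaR-/- given anti-PD1 at 200 ug per mouse on days 7, 11, 15 and 19 and sorted on day 25. KO stands below for a library labelled IFNaR-/-, a genotype without the receptor for type I interferons; the labels give neither the subunit, the age of the mice nor the number of mice pooled in a library. In the anti-PD1 groups CD3+ and CD3- cells were combined in equal parts, so shares of a cell type among all cells follow the sort there.

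NK cells read their targets through many receptors with opposing signs. Inhibitory receptors bind class I molecules of the major histocompatibility complex on healthy cells, and activating receptors bind ligands of stressed or infected cells and signal through small adaptor proteins such as Tyrobp, Hcst and Fcer1g. Several of these receptors are also carried by CD8 T cells after activation. Among the genes described here, Klra4 and Klra8 encode the activating Ly49D and Ly49H, Klrb1c encodes the NK1.1 antigen, Ncr1 encodes NKp46, and Klrk1 encodes NKG2D. Klrc1 encodes NKG2A, an inhibitory chain that pairs with the CD94 protein of Klrd1 and binds Qa-1, the product of H2-T23. Klre1 encodes a chain that pairs with the products of Klri1 (inhibitory) or Klri2 (activating).

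Of the 9 genes, 8 lay on chromosome 6 within 1.35 Mb, in the NK gene complex (GENCODE M21, GRCm38). The 8 were Klrb1c (chr6:128778485-128789215, minus strand), Klre1 (chr6:129577905-129585827, plus), Klrd1 (chr6:129591782-129598775, plus), Klrk1 (chr6:129610323-129623864, minus), Klrc1 (chr6:129666015-129678973, minus), Klri2 (chr6:129729041-129740484, minus), Klra4 (chr6:130043731-130067271, minus) and Klra8 (chr6:130115226-130129898, minus). Ncr1 lies on chromosome 7 (chr7:4337724-4345164, plus). Gene copies limit how firmly reads can be assigned to some of them. Of all 60-base words in its transcripts, Klrc1 shared 32.5% with another gene, nearly all with Klrc2, and Klra8 shared 27.3%, most with the pseudogene Klra14-ps. Klrb1c shared 15.5%, mostly with Gm44511, whose exons overlap it on the same strand. Klra4 shared 2.61%, with Klra1, and no word with Klra8; Klri2 shared 1.71% and Klre1 0.167%, and Klrk1, Klrd1 and Ncr1 shared none. The counts of Klrc1, Klra8 and Klrb1c are therefore uncertain where the authors' counting split or dropped such reads.

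The RefSeq table of promoters (GRCm38.p6, from 250 bases before to 50 after a gene start) held 10 windows for 7 of the 9 genes. The Klra4 window was identical to 1 of the 2 Klra8 windows in 259 of 301 aligned columns (86.0%) and to the other, from a start farther into the gene, in 57.7%, and the first pair is shown because the transcripts of both genes were found in the same gates and libraries below. The 250 bases before each start, from chr6:130067272-130067521 and chr6:130129899-130130148 on the minus strand, were identical in 212 of 251 aligned columns, with capitals marking each base that differs from the other gene:
Klra4: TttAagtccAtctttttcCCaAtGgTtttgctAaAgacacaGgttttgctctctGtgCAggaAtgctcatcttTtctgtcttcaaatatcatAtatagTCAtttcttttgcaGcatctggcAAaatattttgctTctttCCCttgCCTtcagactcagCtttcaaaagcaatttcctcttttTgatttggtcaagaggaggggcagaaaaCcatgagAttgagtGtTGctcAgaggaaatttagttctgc
Klra8: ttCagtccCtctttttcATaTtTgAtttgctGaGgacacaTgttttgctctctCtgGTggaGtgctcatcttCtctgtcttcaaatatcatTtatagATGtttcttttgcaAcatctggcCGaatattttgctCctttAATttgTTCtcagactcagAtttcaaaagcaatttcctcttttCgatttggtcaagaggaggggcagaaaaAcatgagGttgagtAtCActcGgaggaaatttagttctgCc

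The cores of 4 motif types were searched in these windows on both strands. That of Runx sites, TGTGGT, was in 6 of the 10 windows, belonging to 5 of the 7 genes (Klrb1c, Klre1, Klrk1, Klrc1 and Ncr1), and in 16.8% of all 32851 promoter windows. Those of an interferon response element (GAAA, any 2 bases and GAAA again, in 3.44% of all windows), of a STAT element (TTCNNNGAA, 8.30%) and of a T-box site (AGGTGT, 13.7%) had no match in the windows of the 7 genes. A match of letters is not a binding site, and the absence of one is a statement about these windows alone. The 60-base stretches around the Runx core upstream of Klrk1, Klrc1 and Ncr1 lay in no annotated gene and are shown because these 3 genes had unlike levels over cell types. They come from chr6:129623961-129624020 (minus strand, core 129 bases before the gene start), chr6:129679028-129679087 (minus, 87 bases) and chr7:4337512-4337571 and chr7:4337647-4337706 (plus, 185 and 50 bases). Capitals mark the core, and ACCACA is the same core read on the other strand:
Klrk1: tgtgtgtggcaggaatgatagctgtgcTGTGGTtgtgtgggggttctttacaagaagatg
Klrc1: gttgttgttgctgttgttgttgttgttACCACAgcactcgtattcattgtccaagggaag
Ncr1, farther from the start: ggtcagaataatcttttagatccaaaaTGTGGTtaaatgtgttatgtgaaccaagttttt
Ncr1, nearer to the start: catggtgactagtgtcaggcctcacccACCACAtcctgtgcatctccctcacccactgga

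The libraries held 3705 to 9530 barcodes and 32410040 to 94732545 UMIs, and 2727 to 8742 cells passed filtering with a median of 4962.5 to 9484 UMIs. Over all barcodes of the untreated pair, Ifnar1 stood at 97.2 CPM (a gene's UMIs scaled to a common total) in WT and 129 CPM in KO, and over the anti-PD1 pair at 77.3 and 148 CPM. Its RNA was not lower in the KO libraries, and since the part of the gene that was deleted is not given, these counts do not check the labels. The files of untreated WT carry a name that mentions both genotypes, and the sample labels were followed. The interferon-stimulated gene Isg15 was at 932 CPM in WT and 91.0 CPM in KO of the untreated pair and at 1033 and 57.1 CPM in the other. Variable segments took 66.3% of the T cell receptor UMIs of the CD8 gate in anti-PD1 WT. They took 7.71% in anti-PD1 KO and 1.47% to 1.55% in the untreated libraries. The anti-PD1 pair thus differed in this share as well as in genotype, although the labels name the same kit for all libraries. The anti-PD1 libraries shared 95 cell barcodes, 1.08% of the smaller one, and other pairs shared 0 to 3. Because each group was 1 library, intervals cover counting error only, no p-values were computed, and genotype, mouse and library cannot be told apart.

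NK cells were gated by at least 3 of 7 marker genes (Nkg7, Gzma, Prf1, Eomes, Txk, Il2rb and Ctsw) with no UMI of Cd3d, Cd3e, Cd3g, Cd8a or Cd8b1, none of the 9 genes being used. The gate held 274 of 4983 cells (5.50%) in untreated WT and 67 of 2727 (2.46%) in untreated KO. It held 0 of 8742 cells in anti-PD1 WT and 3 of 7882 (0.0381%) in anti-PD1 KO. Klra4, Klra8 and Ncr1 were as scarce in the whole anti-PD1 libraries. Klra4 had 997 and 196 UMIs in the untreated WT and KO libraries and 0 and 2 in the anti-PD1 WT and KO libraries. Klra8 had 1313, 280, 0 and 2 UMIs in that order, and Ncr1 had 557, 186, 2 and 0. NK cells were therefore described in the untreated pair alone. CD8 T cells, with at least 2 CD3 and at least 2 CD8 UMIs and no Cd4 UMI, numbered 679 and 372 in untreated WT and KO and 234 and 387 in anti-PD1 WT and KO.

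All 9 genes were detected in the NK gate of both untreated libraries. The label of the gate rests on its markers, and the term NK cells stands for cells of this gate. Whether the 9 genes separate NK cells from related innate lymphoid cells, whose markers are given below, was not tested. Klrk1, the receptor for the Raet1, H60 and Ulbp1 ligands, had a UMI in 85.8% of WT NK cells and 71.6% of KO NK cells. Klrd1, the common chain of the CD94 receptors, had one in 81.0% and 73.1%. Klrb1c had one in 77.4% and 74.6%, Klre1 in 77.0% and 62.7%, and Ncr1 in 57.7% and 46.3%. The Ly49 genes were found in a fraction of the cells, Klra8 in 52.2% and 46.3% and Klra4 in 38.7% and 43.3%, as were Klri2 (43.4% and 41.8%) and Klrc1 (31.4% and 37.3%). A median of 6 of the 9 genes was seen per WT cell and 5 per KO cell. B cells, which should lack these genes, gave the background: of 66 gated B cells in untreated WT, 7.58% had a Klrd1 UMI, 4.55% a Klrk1 or a Klrc1 UMI and 1.52% a Klre1 UMI, and none had a UMI of the other 5 genes, which allows a UMI in up to 4.55% of such cells. The median depth was 5718.5 UMIs in those B cells and 4996.5 and 6245 in WT and KO NK cells.

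**Figure D1:**
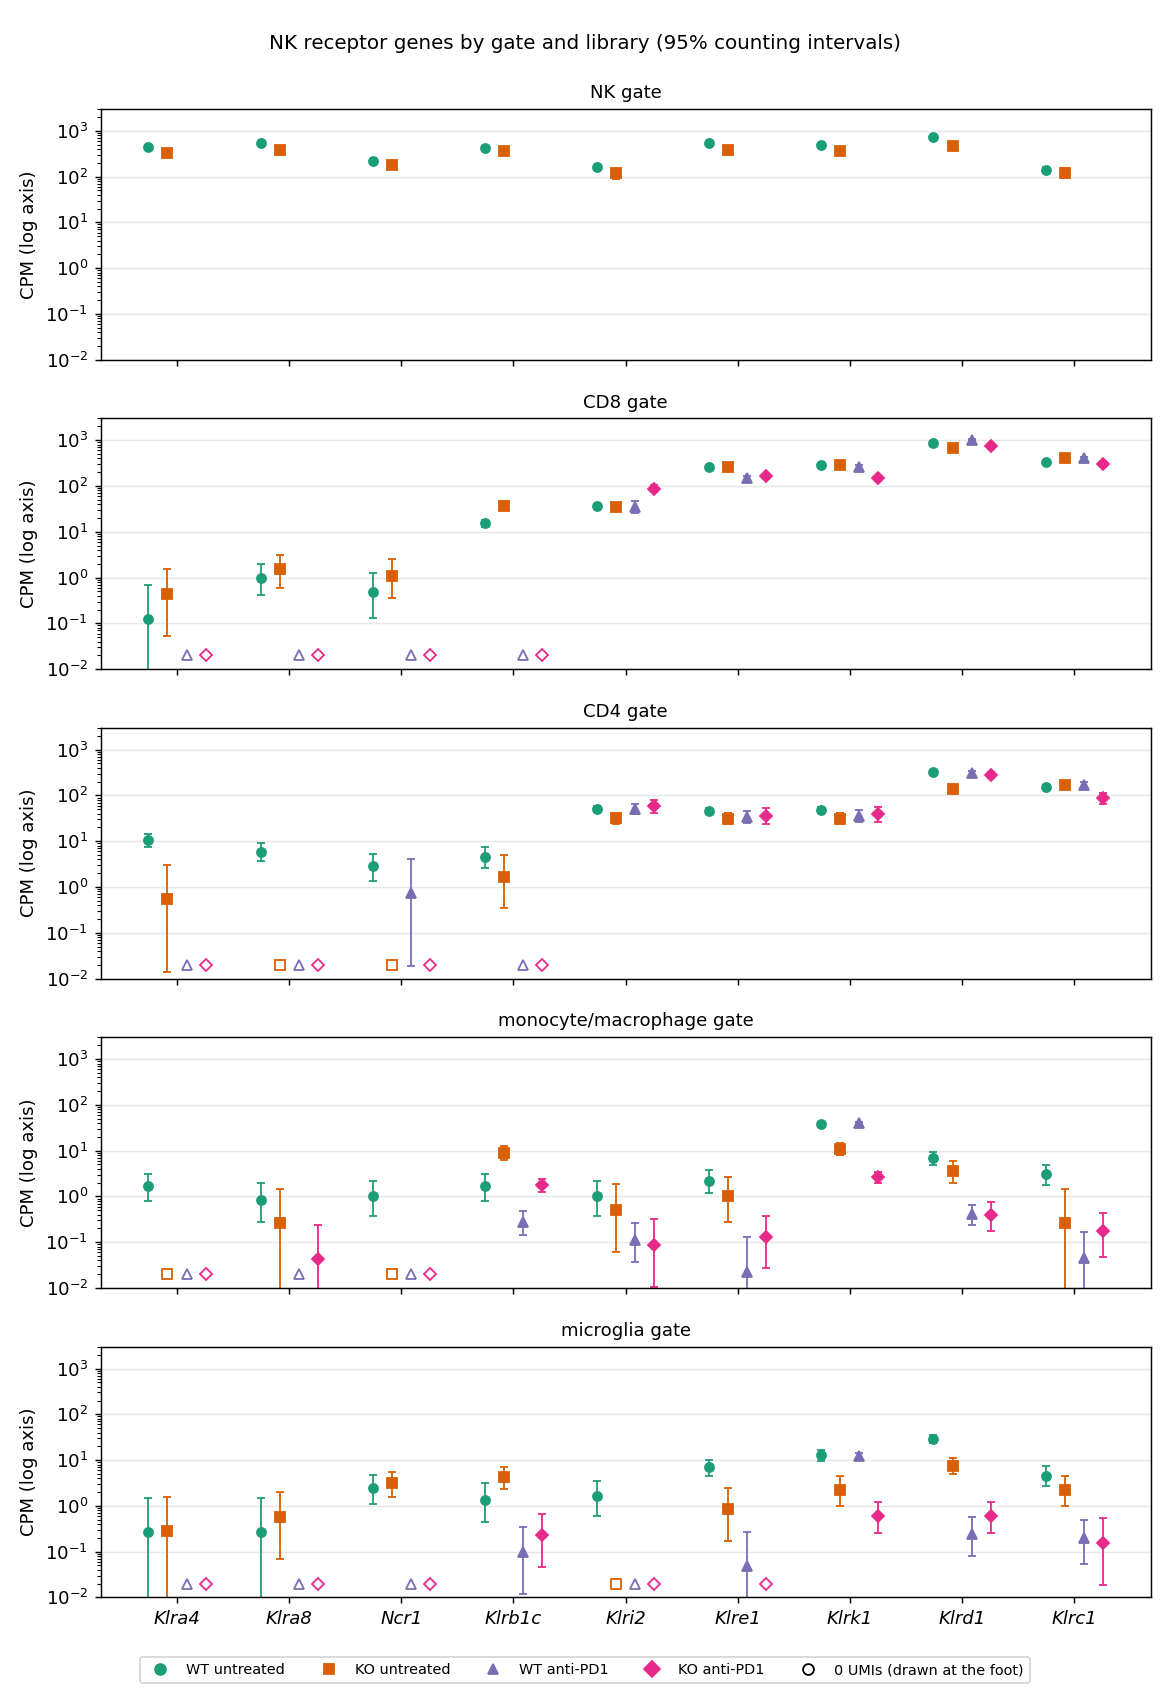
CPM of each gene (log axis) in 5 gates, with 1 point per library and bars for 95% counting intervals; open points at the foot are 0 UMIs, and gates with under 50 cells in a library are left out. Klra4, Klra8 and Ncr1 stand at 181 to 544 CPM in the NK gate and at most at 1.51 CPM in the CD8 gate, while Klrc1 and Klrd1 are high in both.

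In the NK gate each of the 9 genes had a lower level in the KO library than in the WT library, and none by 2-fold. For Klrd1 the level was 734 CPM in WT and 459 CPM in KO (KO/WT 0.625, 95% interval 0.545 to 0.715), the widest gap of the 9. Klre1 stood at 545 and 372 CPM (0.683, 0.585 to 0.794). Klra8 stood at 544 and 378 CPM (0.694, 0.595 to 0.806), and Klra4 at 449 and 322 CPM (0.716, 0.606 to 0.843). These 4 and the next 2 had intervals below 1. Klri2 stood at 160 and 117 CPM (0.735, 0.553 to 0.964) and Klrk1 at 485 and 371 CPM (0.765, 0.654 to 0.891). For the other 3 the interval included 1 or ended at it. Ncr1 stood at 217 and 181 CPM (0.833, 0.662 to 1.04), Klrc1 at 141 and 119 CPM (0.844, 0.634 to 1.11) and Klrb1c at 426 and 365 CPM (0.856, 0.730 to 1.00).

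Thus 0 of 9 genes passed 2-fold between the NK gates, where 5.88% of the 5581 genes tested did. Their median log2 KO/WT was -0.44, against -0.02 over all genes tested, of which 2864 of 5581 were lower. All 9 were lower also with TMM or DESeq2 size factors. With every cell thinned to 1000 UMIs 8 of 9 were lower, Klrk1 stood at 0.11 on the log2 scale and Ncr1 passed 2-fold at -1.23. Lower levels in KO were not particular to the 9 genes. Of 10 measured adaptor genes 9 were lower, with a median of -0.51. Of 10 measured further genes of the NK gene complex 7 were lower, and of 5 measured other receptors 0 were. Other markers moved with this comparison. The sum of 4 markers of mature NK cells was 421 CPM in WT and 132 CPM in KO, with S1pr5 at 23.4 and 1.81, Cma1 at 57.1 and 18.1, Itgam at 85.9 and 25.3 and Zeb2 at 255 and 86.8 CPM. Markers of type 1 innate lymphoid cells, close relatives of NK cells, summed to 188 CPM in WT and 322 CPM in KO. The part of this difference in the make-up of the gate in the receptor levels was not tested. B cell markers summed to 1.09 and 1.81 CPM and myeloid markers to 169 and 105 CPM. Gamma-delta T cell genes summed to 48.4 CPM in WT and 70.5 CPM in KO, with a Trdc UMI in 18.2% and 25.4% of cells. Markers of type 2 innate lymphoid cells summed to 122 and 128 CPM, with a Gata3 UMI in 37.2% and 44.8% of cells.

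**Figure D2:**
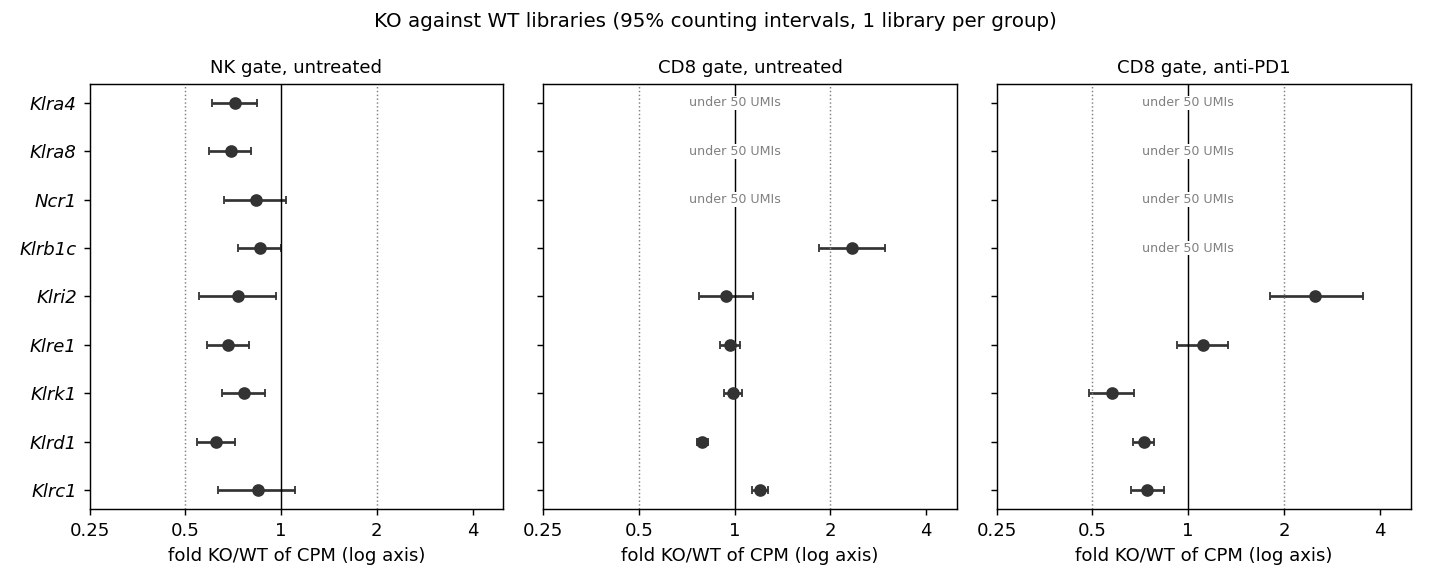
Fold KO/WT of CPM (log axis) for each gene in the NK gate of the untreated pair and the CD8 gate of both pairs, with 95% counting intervals and dotted lines at 2-fold. All 9 NK points lie below 1 and above 0.5, and in the CD8 gate 1 gene lies beyond 2 in each pair: Klrb1c (untreated) and Klri2 (anti-PD1).

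The NK cells were divided by Klra4 and Klra8. A UMI of Klra4 or Klra8 was present in 178 of 274 WT cells (65.0%, 95% interval 59.0% to 70.6%) and in 36 of 67 KO cells (53.7%, 41.1% to 66.0%), and of both in 25.9% and 35.8%. Cells with both were 1.28 times as frequent in WT, and 1.79 times in KO, as the product of the separate shares. Klra4 and Klrc1 shared cells less often than that product, 0.601 times in WT and 0.554 times in KO. Klra8 and Klrc1 stood at 0.847 and 0.865 times, and at 0.598 in WT after thinning to 1000 UMIs. The other ratios used all UMIs, so WT and KO were not set side by side at equal depth. In KO the median depth was 6802.5 UMIs with and 4319 without a Klra4 or Klra8 UMI, and in WT 4941 and 5072.5.

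Klrc1, the inhibitory NKG2A chain, was higher in NK cells without a Klra4 or Klra8 UMI in both libraries. Its level was 91.1 CPM in the WT cells with and 231 CPM in the WT cells without such a UMI, 2.53-fold higher in the latter (1.96 to 3.27), and 61.6 and 225 CPM in KO, 3.65-fold higher (2.14 to 6.39). Klri2 had the opposite direction, at 198 against 91.9 CPM in WT (2.16-fold higher with such a UMI, 1.62 to 2.91) and 165 against 30.6 CPM in KO (5.39-fold, 2.34 to 15.3). Ncr1 differed by less than counting error, at 0.979-fold (0.796 to 1.21) in WT and 0.975-fold (0.638 to 1.51) in KO. Klrb1c and Klrk1 were 1.22-fold (1.05 to 1.43) and 1.21-fold (1.05 to 1.40) higher with such a UMI in WT, with intervals that included 1 in KO. Klrd1 was 1.23-fold higher (1.10 to 1.39) with such a UMI in WT and 0.754-fold (0.583 to 0.976) in KO. Klre1 was 1.66-fold higher (1.43 to 1.92) with such a UMI in WT and stood at 1.22-fold (0.900 to 1.66) in KO.

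Genes outside the family also differed along this division. Eomes, a T-box factor of NK cells that was among the gate markers, stood at 421 CPM with and 163 CPM without such a UMI in WT, and at 358 and 173 CPM in KO. Xcl1, a chemokine, stood at 507 and 1246 CPM in WT and 470 and 1276 CPM in KO. Gzmc, a granzyme, stood at 1748 and 4458 CPM in WT and 5640 and 8532 CPM in KO. The shares of cells with an Xcl1 UMI lay closer, at 56.7% with and 62.5% without in WT and 52.8% and 58.1% in KO. A Gzmc UMI was found in 17.4% and 20.8% of the WT cells and in 27.8% and 54.8% of the KO cells. Cxcr6 and Tmem176a, which were listed as markers of type 1 innate lymphoid cells, stood at 5.96 and 0.851 CPM with and 22.6 and 57.3 CPM without such a UMI in WT, and at 2.80 and 5.60 against 138 and 163 CPM in KO. Itga1, another marker of that list, differed by less than counting error, at 0.882-fold (0.652 to 1.20) in WT and 0.747-fold (0.476 to 1.18) in KO. Tnfsf10, the death ligand TRAIL, was lower with such a UMI, at 40.0 against 64.8 CPM in WT (0.618, 0.400 to 0.957) and 22.4 against 102 CPM in KO (0.219, 0.0836 to 0.520). The mature NK markers S1pr5, Cma1, Itgam and Zeb2 were higher with such a UMI in WT, by 7.53-fold, 4.00-fold, 1.46-fold and 1.26-fold. In KO Zeb2 stood at 1.85-fold (0.922 to 4.01) and Itgam at 22.4 against 30.6 CPM, and S1pr5, Cma1 and Itgam had few UMIs there. Summed over cells, those without a Klra4 or Klra8 UMI thus had more Klrc1, Xcl1, Gzmc, Cxcr6 and Tmem176a and less Eomes and Klri2 in both libraries. Other Ly49 genes such as Klra7, with a UMI in 46.4% of WT and 29.9% of KO NK cells, did not enter the division. The median depth was 4941 UMIs with and 5072.5 without a Klra4 or Klra8 UMI in WT, and 6802.5 with and 4319 without in KO, and the part of depth in the KO values was not tested.

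**Figure D3:**
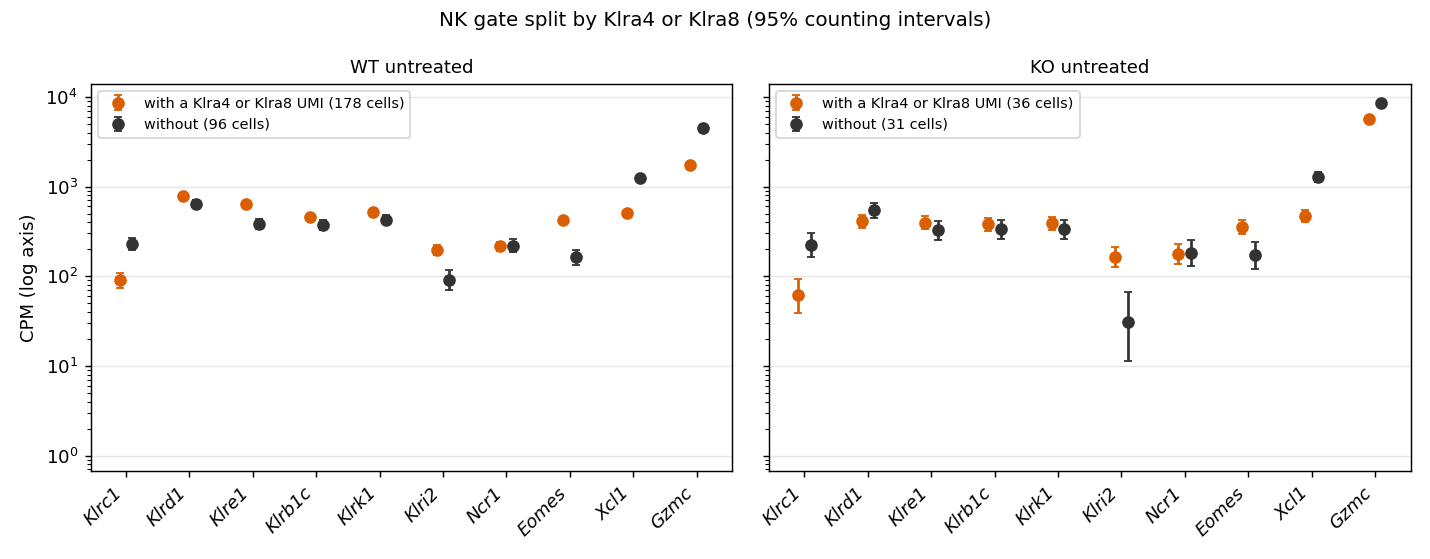
CPM (log axis) of 7 receptor genes and of Eomes, Xcl1 and Gzmc in NK cells with (orange) and without (black) a Klra4 or Klra8 UMI, in untreated WT (left) and KO (right), with 95% counting intervals. Klrc1, Xcl1 and Gzmc are higher without and Klri2 and Eomes higher with such a UMI in both libraries, while Ncr1 lies at 215 and 220 CPM in WT and 179 and 184 CPM in KO.

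Comparing the NK gate with the CD8 gate of the same library placed the genes on a range from nearly restricted to NK cells to higher in CD8 T cells. In the CD8 gate Klra4 had 1 UMI in untreated WT and 2 in untreated KO, Klra8 had 8 and 7, and Ncr1 had 4 and 5. NK cells were higher than CD8 T cells by 554-fold in WT (280 to 1288) and 250-fold in KO (119 to 631) for Klra8, and by 442-fold (171 to 1630) and 168-fold for Ncr1. For Klra4 the ratio was 3660 (655 to 144729) and 747 (204 to 6213), resting on those 1 to 2 UMIs. Klrb1c and Klri2 were higher in NK cells and present in both gates. Klrb1c was 27.8-fold higher in NK cells of WT (22.98 to 33.8) and 10.1-fold in KO (8.22 to 12.5), and Klri2 4.34-fold (3.68 to 5.12) and 3.39-fold (2.50 to 4.54).

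The other 4 genes differed less between the lineages or were higher in CD8 T cells. Klre1 was 2.06-fold higher in NK cells of WT (1.91 to 2.22) and 1.45-fold in KO (1.25 to 1.68), and Klrk1 1.70-fold (1.57 to 1.84) and 1.32-fold (1.13 to 1.53). Klrd1 was higher in CD8 T cells, 1.17-fold in WT (1.11 to 1.25) and 1.49-fold in KO (1.31 to 1.70). Klrc1 was higher in CD8 T cells by 2.38-fold in WT (2.10 to 2.72) and 3.40-fold in KO (2.66 to 4.41). At least 2-fold differences held for 7 of 9 genes in WT, where 13.6% of all genes tested passed, and for 6 of 9 in KO, where 13.1% passed. The median log2 ratio NK/CD8 was 2.12 and 1.77 over the 9 genes and 0.03 and -0.03 over all genes. Klre1 in WT sat at the limit and fell below it with TMM factors (0.91 on the log2 scale). With NK cells gated by Ncr1 or Klrb1c, which leaves those 2 genes out, the counts were 5 of 7 and 4 of 7 and the medians 1.06 and 0.22.

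CD8 T cells of all 4 libraries thus carried CD94 and NKG2A transcripts. In the order untreated WT, untreated KO, anti-PD1 WT and anti-PD1 KO, a Klrd1 UMI was present in 94.4%, 93.8%, 85.0% and 80.9% of CD8 T cells, and a Klrc1 UMI in 86.0%, 90.6%, 68.8% and 59.2%. Klrk1 had a UMI in 81.4%, 77.4%, 53.4% and 41.1%, Klre1 in 71.7%, 71.2%, 38.9% and 38.8% and Klri2 in 16.9%, 18.5%, 11.97% and 23.5%. The median depth of these cells was 10156, 10458.5, 4915 and 3679 UMIs. With each cell thinned to 1000 UMIs the Klrd1 shares were 50.2%, 44.3%, 54.9% and 46.5% and those of Klrk1 24.7%, 24.6%, 21.9% and 17.1%, so at equal depth Klrd1 was not less frequent with anti-PD1 and Klrk1 was less frequent by a smaller margin. Among CD8 T cells with a Klrc1 UMI, 97.4%, 96.1%, 95.7% and 86.5% also had a Klrd1 UMI, the gene of its partner chain.

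Between the untreated libraries, 1 of the 6 genes with at least 50 UMIs differed by 2-fold in CD8 T cells, where 2.78% of genes tested did. That gene was Klrb1c, at 15.3 CPM in WT and 36.0 CPM in KO (2.34-fold higher in KO, 1.85 to 2.98), with a UMI in 6.48% of WT and 18.5% of KO cells. Klrc1 stood at 337 and 405 CPM (1.20, 1.13 to 1.28) and Klrd1 at 862 and 683 CPM (0.792, 0.759 to 0.826), partner chains with opposite directions. Klre1 (265 and 256 CPM), Klrk1 (285 and 282 CPM) and Klri2 (36.8 and 34.7 CPM) had KO/WT of 0.968, 0.988 and 0.942 with intervals that included 1, from 0.901 to 1.04, 0.923 to 1.06 and 0.773 to 1.14. The median log2 KO/WT of the 6 was -0.03, beside 0.08 over all genes tested.

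Between the anti-PD1 libraries, 1 of 5 measured genes passed 2-fold, where 14% of genes tested did. That gene was Klri2, at 35.1 CPM in WT and 88.1 CPM in KO (2.51-fold higher in KO, 1.81 to 3.54). Klrk1 stood at 255 and 147 CPM (0.575, 0.488 to 0.678), Klrc1 at 401 and 299 CPM (0.745, 0.659 to 0.841) and Klrd1 at 1021 and 739 CPM (0.724, 0.671 to 0.781). Klre1 stood at 147 and 163 CPM (1.11, 0.924 to 1.34). The median log2 KO/WT of the 5 was -0.43, beside 0.19 over all genes. Klra4, Klra8, Klrb1c and Ncr1 had 0 UMIs in the CD8 gates of both anti-PD1 libraries, which allows a UMI in up to 1.28% of the 234 WT cells and 0.775% of the 387 KO cells and says nothing of cells whose transcripts were not captured. The 2 libraries also differ in the share of variable receptor segments given above, and the part of that difference in these ratios was not tested.

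Anti-PD1 and untreated CD8 T cells were compared within each genotype, a comparison that also spans the day of sorting, the sort and the Cell Ranger version. It spans the gene annotation as well, with 31053 features counted in the untreated and 32285 in the anti-PD1 libraries. The part of that change in the counts of Klrb1c, whose exons overlap Gm44511, was not tested. In WT, 1 of 6 genes passed 2-fold, where 19.8% of genes tested did: Klrb1c, at 15.3 CPM untreated and 0 UMIs with anti-PD1, at least 7.14-fold lower against a floor of 3 UMIs. Klre1 stood at 265 and 147 CPM (0.554, 0.478 to 0.640), Klrc1 at 1.19-fold (1.08 to 1.30) and Klrd1 at 1.18-fold (1.12 to 1.25). Klrk1 (0.895, 0.798 to 1.00) and Klri2 (0.953, 0.689 to 1.29) moved within or at the edge of counting error. In KO, 2 of 6 passed, where 22.3% did: Klrb1c, at least 20.7-fold lower with anti-PD1, and Klri2, 2.54-fold higher (2.02 to 3.19). Klrk1 stood at 282 and 147 CPM (0.521, 0.453 to 0.596), Klre1 at 0.635 (0.556 to 0.724), Klrc1 at 0.737 (0.667 to 0.813) and Klrd1 at 1.08 (1.01 to 1.16). Summed myeloid markers in the CD8 gate were 90.1 and 91.8 CPM in untreated WT and KO and 936 and 867 CPM in anti-PD1 WT and KO. Without the gate's limit on such markers, Klrc1 and Klrd1 in WT had log2 ratios of -0.33 and -0.26 and Klrd1 in KO -0.15, the opposite direction; Klrd1 in KO was also below 0 with TMM factors (-0.04), DESeq2 size factors (-0.03) and a stricter cell filter (-0.02). The part of myeloid RNA in these ratios was not tested.

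Within the CD8 gate, Klrb1c followed the granzymes of cytolytic cells. In cells with a UMI of Gzmc, Gzmd, Gzme or Gzmf it stood at 23.9 CPM and in the others at 4.24 CPM in untreated WT (5.62-fold, 3.26 to 10.4), and at 52.7 and 12.4 CPM in untreated KO (4.24-fold, 2.74 to 6.84). Klrd1 was 1.82-fold (1.61 to 2.05) and 1.56-fold (1.35 to 1.81) higher in such cells of anti-PD1 WT and KO, which numbered 27 and 45, and stood at 1.02-fold (0.975 to 1.07) and 1.16-fold (1.08 to 1.25) in untreated WT and KO. Klri2 was lower in granzyme-positive cells of the untreated libraries, 0.636-fold (0.503 to 0.803) in WT and 0.686-fold (0.497 to 0.945) in KO, and higher in those of the anti-PD1 libraries, 3.02-fold (1.59 to 5.58) and 2.02-fold (1.32 to 3.01).

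CD4 T cells carried Klrd1, Klrc1, Klre1 and Klrk1 at lower levels than CD8 T cells of the same library. Klrd1 stood there at 329, 137, 311 and 280 CPM, with a UMI in 39.3%, 34.4%, 41.1% and 36.5% of cells. Klrc1 stood at 156, 168, 170 and 86.8 CPM, in 40.5%, 40.1%, 37.2% and 24.3% of cells. Klre1 stood at 46.5, 31.2, 34.6 and 36.4 CPM and Klrk1 at 47.9, 31.2, 36.1 and 39.2 CPM. Klrd1 was below its CD8 level in each library, by the widest margin in untreated KO. Klra4, Klra8 and Ncr1 were rare in CD4 T cells, except for 38 Klra4 and 21 Klra8 UMIs in 1.47% and 0.983% of the untreated WT cells.

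Klrk1 was also found in myeloid cells, and there its level differed with the genotype label. In the monocyte/macrophage gate (at least 1% of UMIs from 7 myeloid markers) it stood at 37.9 CPM in WT and 11.1 CPM in KO without treatment, and at 39.5 and 2.61 CPM with anti-PD1. A UMI was found in 23.6%, 8.80%, 26.0% and 1.44% of these cells, where none of the other 8 genes passed 8.21% in any library. WT was 3.42-fold higher than KO without treatment (2.46 to 4.86) and 15.2-fold higher with anti-PD1 (11.7 to 20.0). Klrd1, high in CD8 T and NK cells, had UMIs in 5.78%, 4.11%, 0.405% and 0.255% of the same cells. There were 5.51, 3.07, 96.6 and 6.67 Klrk1 UMIs per Klrd1 UMI in the gate, against 0.198 to 0.412 in CD8 T cells and 0.660 and 0.807 in NK cells. The part of lymphoid RNA in the Klrk1 counts was not tested.

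The difference held in each subset examined. Among monocyte/macrophage cells without a UMI of any of the 7 NK gate markers, Klrk1 had KO/WT of 0.189 (0.110 to 0.308) untreated and 0.0666 (0.0505 to 0.0864) with anti-PD1. Ly6c2, a gene of inflammatory monocytes, had a UMI in 480 of 640, 89 of 341, 2856 of 4446 and 117 of 3534 cells, so the gate's make-up differed between genotypes. Within the Ly6c2-positive cells KO/WT was 0.236 (0.111 to 0.444) and 0.198 (0.0904 to 0.377), and within the negative cells 0.335 (0.208 to 0.532) and 0.0744 (0.0546 to 0.0995). In WT, monocyte/macrophage cells with a Klrk1 UMI had more Isg15 than those without, 1926 against 1226 CPM untreated and 1572 against 958 CPM with anti-PD1. In KO the values were 127 and 115 CPM untreated, and 239 and 67.1 CPM over 51 and 3483 cells with anti-PD1. Untreated WT cells with a Klrk1 UMI also had more Klrd1 (2.25-fold, 1.15 to 4.36), while Nkg7 stood at 1.35-fold (0.825 to 2.17). Cells with an NK gate marker UMI had 0.950-fold (0.722 to 1.24) the Klrk1 level of the others in untreated WT and 2.53-fold (1.33 to 4.88) in untreated KO. With anti-PD1 the values were 1.00-fold (0.744 to 1.32) in WT and 0.618-fold (0.0154 to 3.58) in KO.

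**Figure D4:**
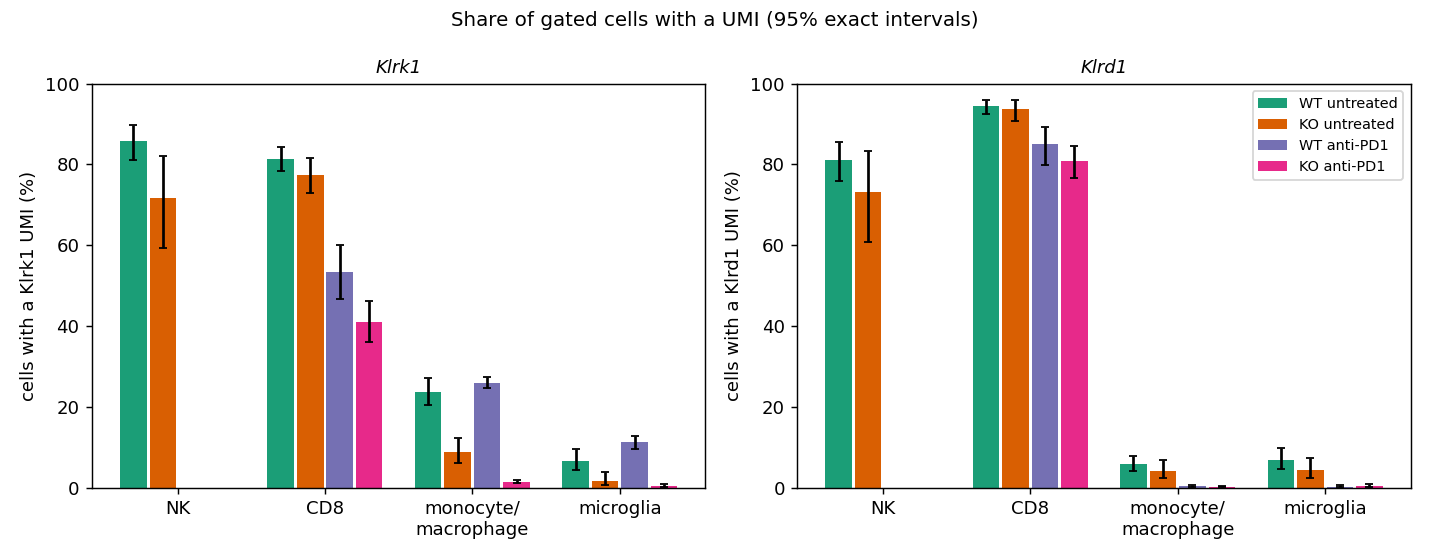
Percentage of gated cells with a UMI of Klrk1 (left) and Klrd1 (right) in NK, CD8, monocyte/macrophage and microglia gates, bars by library from 0, with 95% exact intervals; the NK gate is shown for the untreated libraries only. Klrk1 reaches 23.6% and 26.0% of WT monocyte/macrophage cells and 8.80% and 1.44% of KO cells, while Klrd1 stays at most at 5.78% there.

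Microglia, the resident macrophages of the brain, had less Klrk1 than the monocyte/macrophage gate and the same direction. It stood at 12.7, 2.25, 12.4 and 0.603 CPM, with KO/WT of 0.177 (0.0724 to 0.379) untreated and 0.0488 (0.0208 to 0.0976) with anti-PD1. Klrd1 in the untreated microglia stood at 29.4 and 7.59 CPM in WT and KO (0.258, 0.163 to 0.396), and Klrk1 per Klrd1 UMI was 0.431 and 0.296 there beside 0.330 and 0.412 in CD8 T cells. With anti-PD1 the ratio was 50.8 in WT and 1.00 in KO. At least 2-fold differences held for 1 of 2 measured genes in the untreated monocyte/macrophage gate (6.51% of all genes). They held for 2 of 2 there with anti-PD1 (18.6%), 2 of 2 in untreated microglia (4.35%) and 1 of 1 in anti-PD1 microglia (20.8%). The measured genes of microglia met the UMI minimum mainly through the WT libraries. Klrk1 had 47 UMIs in WT and 8 in KO untreated, and 254 and 8 with anti-PD1. Resting on 1 or 2 genes chosen in this way, the counts cannot be set against the shares of all genes.

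Klrb1c went the other way in myeloid cells, at low counts. In the monocyte/macrophage gate it had 10 UMIs (1.68 CPM) in WT and 35 (9.01 CPM) in KO without treatment, and 12 (0.273 CPM) and 40 (1.74 CPM) with anti-PD1. KO was 6.37-fold higher (3.28 to 13.3) with anti-PD1, and 5.37-fold (2.60 to 12.2) without treatment, where the 45 UMIs fell short of the minimum of 50. In untreated cells without a Ly6c2 UMI the interval included 1 (2.09-fold, 0.898 to 5.63), as it did in anti-PD1 cells with a Ly6c2 UMI (6.28-fold, 0.660 to 30.3). Its neighbour Klrb1b, an inhibitory receptor of the same family with which Klrb1c shares 1.53% of its 60-base words, stood at 20.6 CPM in WT and 82.9 CPM in KO untreated (4.02-fold, 3.26 to 4.99), and at 38.4 and 36.5 CPM with anti-PD1 (0.952, 0.875 to 1.03), where KO/WT was 1.78 (1.36 to 2.28) in cells with a Ly6c2 UMI and 0.805 (0.724 to 0.895) in cells without.

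The rest of the NK gene complex was measured from a list of 18 further genes. Between the NK gates of untreated KO and WT, 10 of the 18 had at least 50 UMIs and 0 passed 2-fold, where 5.88% of all genes did. Between the untreated CD8 gates 3 of 6 passed, where 2.78% of all genes did, and the 3 were lower in KO: the inhibitory Ly49 genes Klra7 (26.6 and 2.80 CPM in WT and KO), Klra3 (19.5 and 7.76 CPM) and Klra6 (7.37 and 0.862 CPM). Their UMIs came from few cells, 2.95%, 6.92% and 2.21% of the WT cells in that order and 1.34%, 2.69% and 0.538% of the KO cells. The activating Klra4 and Klra8 had 1 to 8 UMIs in those cells. Against NK cells, CD8 T cells of untreated WT had less of 8 of 11 measured genes of the list by 2-fold, where 13.6% of all genes passed in either direction, among them Klrb1a (173-fold higher in NK), Klrb1f (151-fold) and Klra9 (148-fold). Klrb1a, Klrb1f and Klra9 met the minimum of 50 UMIs through the NK gate, so their passing was nearly fixed by that filter. Klra5 was the 1 gene of the list past 2-fold in the other direction, at 145 CPM in WT and 146 CPM in KO against 23.9 and 18.1 CPM in NK cells. It stood at 33.6 and 5.80 CPM in anti-PD1 WT and KO. Klrc2, the activating relative that holds 31.5% of the words of Klrc1, stood at 118, 142, 20.0 and 38.3 CPM in CD8 T cells and at 152 and 137 CPM in NK cells.

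The signalling partners of these receptors went in both directions between the gates. Of the measured adaptor genes, 6 of 10 were higher in NK than in CD8 T cells of untreated WT and 3 of 8 in KO. Over all genes tested, 4704 of 8993 were higher in WT and 3732 of 7765 in KO. Tyrobp, the adaptor of Ly49D, Ly49H and NKG2D, was 43.5-fold higher in NK than in CD8 T cells of untreated WT (38.7 to 49.0) and 44.1-fold in KO (35.9 to 54.7). Fcer1g, the adaptor of NKp46 and NK1.1, was 4.04-fold (3.86 to 4.22) and 3.82-fold (3.51 to 4.17) higher. Hcst, the other adaptor of NKG2D, was lower in NK cells, at 516 CPM against 688 CPM in CD8 T cells of WT (0.750, 0.700 to 0.804) and 389 against 488 CPM in KO (0.796, 0.689 to 0.916). Zap70, a kinase of the T cell receptor, was lower as well, at 84.9 against 165 CPM in WT and 108 against 186 CPM in KO. Of 10 measured genes of this adaptor list, 1 passed 2-fold between the NK gates of KO and WT, Sh2d1a at 56.0 against 117 CPM (0.479, 0.318 to 0.700), where 5.88% of all genes passed. Of 9 other NK and T cell receptors, 5 were measured in the NK gates and 0 passed (5.88% of all genes), and 8 in the untreated CD8 gates with 1 passing (2.78% of all genes), Slamf6 at 19.4 CPM in KO against 4.79 in WT. Tigit, a checkpoint receptor of that list, stood in CD8 T cells at 4.91 and 4.74 CPM untreated and at 427 and 176 CPM with anti-PD1 in WT and KO.

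The ligands of these receptors were measured on the myeloid cells. In the monocyte/macrophage gate 5 of 5 measured ligand genes were lower in KO without treatment and 7 of 8 with anti-PD1. Over all genes tested, 3972 of 8972 and 5006 of 11549 were lower. Of the ligand genes 2 and 3 were past 2-fold, where 6.51% and 18.6% of all genes passed. The 2 were Clec2d, ligand of the Klrb1b product, at 129 and 63.1 CPM in WT and KO, and Clec2i at 12.9 and 5.92 CPM. The 3 were H2-T23, ligand of the Klrc1 and Klrd1 pair, at 1024 and 465 CPM (0.454, 0.444 to 0.464), H2-D1 at 4398 and 2071 CPM (0.471, 0.466 to 0.475) and Raet1d, a ligand of the Klrk1 product, at 1.66 and 0.261 CPM (0.157, 0.0558 to 0.359). In microglia H2-T23 had KO/WT of 0.447 (0.417 to 0.477) untreated and 0.353 (0.342 to 0.364) with anti-PD1.

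Over 19 groups of gate and library with at least 50 cells, the 9 genes fell into sets by their log2(CPM + 1) levels. Klra4 and Klra8 correlated at Pearson r = 0.989 and Klra8 and Ncr1 at 0.975. Klrc1 and Klrd1 correlated at 0.980, and Klrc1 and Ncr1 at 0.270. The nearest genes were sought among 13619 genes, with the 9 genes themselves left out of the ranking. Those most like Klra4 and Klra8 were Klrb1f (0.976 and 0.971) and Tmsb15a (0.960 and 0.971), and those most like Ncr1 were Tmsb15a (0.952) and Klrb1a (0.948). Klrd1 was most like Ctsw (0.995) and Nkg7 (0.988), Klrc1 most like Nkg7 (0.989) and Bspry (0.985) and Klre1 most like Ctsw (0.982) and Styk1 (0.981), where Ctsw and Nkg7 are themselves gate markers. Klri2 was most like Lef1 (0.979) and Gm33104 (0.972), Klrb1c most like Khdc1a (0.931) and Elmo2 (0.923), and Klrk1, the gene also found in myeloid cells, had its nearest genes at lower values, Esyt1 (0.899) and Runx3 (0.898). The NK gates among these groups were those of untreated WT and KO alone, so the high values for Klra4, Klra8 and Ncr1 rest largely on those points. The 19 points share libraries, depth and gates, so these values are descriptions.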

How the data were processed

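The authors deposited raw UMI counts per gene and cell barcode, made with Cell Ranger 3.1.0 (untreated) and 7.2.0 (anti-PD1) per the file headers, on mm10/GRCm38 per the submitters' processing notes. Intron settings are not given in the sources used here. A cell was kept if 200 or more genes were detected and mitochondrial UMIs were no more than 10%, and the highest Scrublet scores (scanpy 1.11.5) were removed as doublets at a nominal 0.8% per 1000 barcodes (281, 83, 722 and 594 cells, untreated WT and KO, then anti-PD1 WT and KO). Lymphoid gates allowed at most 0.5% of a cell's UMIs from myeloid markers and microglia had at least 2 UMIs of P2ry12, Tmem119 or Sall1. UMIs were summed per gate and library and scaled to CPM. Intervals (95%) were exact Poisson for CPM, exact binomial for ratios and Clopper-Pearson for shares. Genes with at least 50 UMIs in a pair were compared at 2-fold, log2 ratios used a pseudocount of 0.5, and a count of 0 had a floor of 3 UMIs. The minimum applied to the sum over both groups, so a gene seen almost only in 1 group passed 2-fold nearly by construction. No gene test was run, since each group had 1 library. Python 3.11.15, numpy 2.4.6, scipy 1.17.1, pandas 2.3.3, R 4.3.3, edgeR 4.0.16 (TMM) and DESeq2 1.42.0 (size factors) were used. Genes of other lists were named if past 2-fold (up to 3 per direction) or needed for a count; Isg15, Ly6c2, Eomes, Xcl1 and Gzmc were chosen after their values were seen. The genes, lists, motifs and cell divisions were chosen with earlier results of these data known. Klrh1, Cd244a, Raet1a, Raet1b and Raet1c were not among the shared symbols.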

Additional observations from a re-analysis of the deposited data

Results flagged for a closer look

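Klrc1 in CD8 T cells had opposite directions in the 2 pairs of libraries. Its log2 ratio KO/WT was 0.27 untreated and -0.43 with anti-PD1, and the log2 ratio anti-PD1/untreated was 0.25 in WT and -0.44 in KO. With 1 library per group this reversal was not tested, and the 4 ratios share the same 4 libraries. Summed myeloid markers in the gate were 90.1 and 91.8 CPM in the untreated and 936 and 867 CPM in the anti-PD1 libraries, and without the gate's limit on them the WT ratio was -0.33.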

How the results depend on the processing

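Of 757 single ratios recomputed under the alternatives, 690 stayed within their counting interval, 67 moved beyond it and 0 of the ratios past 2-fold changed sign. The count of genes past 2-fold between untreated KO and WT NK cells went from 0 to 1 with cells thinned to 1000 UMIs (Ncr1, -1.23) and with NK cells gated by Ncr1 or Klrb1c in place of the markers (Klrd1, -1.05). For anti-PD1 against untreated CD8 T cells of WT it went from 1 to 2 with no myeloid limit (Klre1, -1.34), TMM factors, DESeq2 size factors or no UMI minimum. With no UMI minimum it went from 1 to 3 between untreated KO and WT CD8 T cells and from 2 to 4 for anti-PD1 against untreated in KO. TMM factors moved the median of all genes by 0.10 to 0.17 on the log2 scale in the CD8 comparisons and by 0.02 between NK gates. Depth limits the NK comparison, which rests on 67 KO cells, and the 4 genes with 0 UMIs in anti-PD1 CD8 T cells. No paired analysis was possible because each group has 1 library.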
